A study of Mus musculus with 135 samples.

Results

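The nitric oxide and arginine pathway was followed through 10 genes in bulk RNA of the cerebral cortex and hippocampus of male Townes mice. The genes were chosen by name for their place in the pathway, with earlier results of these data known. All 10 were among the 55416 genes of each count table. They are the nitric oxide synthase genes Nos1, Nos2 and Nos3, the soluble guanylyl cyclase subunit genes Gucy1a1 and Gucy1b1, the arginase genes Arg1 and Arg2, the dimethylarginine dimethylaminohydrolase genes Ddah1 and Ddah2, and the argininosuccinate lyase gene Asl. All mice were adults whose own globin genes had been replaced by human ones, normal in AA mice and with the sickle allele in SS mice. Plain AA and SS denote mice that were neither stressed nor treated. RSD denotes repeat social defeat, a stress in which an aggressive male intruder was put daily into an established cage of males, and minocycline, an antibiotic that dampens microglia, was given in drinking water from the day before RSD until its last session. Unstressed, untreated mice gave 12 AA and 8 SS cortex libraries and 11 AA and 7 SS hippocampus libraries. The other groups had the same numbers in both tissues, with 3 AA and 6 SS mice given RSD alone, 18 AA and 14 SS mice given RSD and minocycline, and 4 SS mice given minocycline alone. The single AA + minocycline mouse entered no comparison.

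Nitric oxide is a short-lived messenger that synthases make from arginine, with citrulline as the second product. It crosses membranes and binds soluble guanylyl cyclase, an enzyme of an alpha and a beta subunit, which then makes cyclic GMP. In the brain it serves as a signal between neurons and relaxes blood vessels, and in sickle cell disease haemoglobin freed from broken red cells takes up nitric oxide while arginase released with it consumes arginine. Arginases divert arginine to ornithine and urea, DDAH enzymes degrade the methylated arginines that inhibit the synthases, and Asl splits argininosuccinate to rebuild arginine from citrulline.

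The genes of both receptor subunits, Gucy1b1 (chr3:81939312-81982022) and Gucy1a1 (chr3:81999733-82053216, both GRCm39, minus strand), lie 17710 bases apart, and both were higher in the cortex, as described next. Their promoters are shown for that reason, as the 250 bases before the start site, from RefSeq on GRCm38.p6, 5' to 3' on the gene's strand. They were read at chr3:82145651-82145900 for Gucy1a1 and chr3:82074712-82074961 for Gucy1b1, both on the minus strand. Capitals mark the GC box letters GGGCGG.
Gucy1a1: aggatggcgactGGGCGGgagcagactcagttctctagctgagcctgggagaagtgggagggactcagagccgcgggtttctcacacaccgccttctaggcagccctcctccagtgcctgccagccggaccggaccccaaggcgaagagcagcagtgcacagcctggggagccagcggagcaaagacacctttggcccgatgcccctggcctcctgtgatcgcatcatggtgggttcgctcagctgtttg
Gucy1b1: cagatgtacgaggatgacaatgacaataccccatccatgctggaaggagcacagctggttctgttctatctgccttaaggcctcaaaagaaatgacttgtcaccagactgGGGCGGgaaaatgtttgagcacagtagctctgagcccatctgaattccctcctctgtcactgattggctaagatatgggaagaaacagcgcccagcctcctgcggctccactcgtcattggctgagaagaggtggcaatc
Each window holds these letters once, and neither holds TATAAA on either strand. GGGCGG or its reverse complement is present in 32.7% of all 32851 promoter windows of the same length, and TATAAA in 12.4%. Windows were given for 5 of the 10 genes (Nos1, Gucy1a1, Gucy1b1, Ddah1 and Ddah2). Gucy1a1 has a second window that holds neither motif.

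The 66 cortex libraries held 16295042 to 107713193 reads on genes (median 33447552) and the 64 hippocampus libraries 12869149 to 68731008 (median 34199033). Some libraries stand apart from their labels. The cortex and hippocampus libraries of AA + RSD mouse 9674 carry each other's regional markers: the cortex library had a summed level of 69.8 CPM for 3 cortical markers (median over cortex libraries 264) and 669 CPM for 4 hippocampal markers (273), and the hippocampus library had 239 CPM (median over hippocampus libraries 85.3) and 255 CPM (697). The libraries labelled 5844, 5853, 7078 and 9631 go against their labels in other markers. Mouse 9631, labelled AA, had 107 CPM of the erythroid markers named below in the cortex, against medians of 4.62 CPM in AA and 115 CPM in SS mice. The main fits keep these 5 mice, and calls were recomputed without them. Mouse numbers fall into 3 series, called A, B and C here. Both groups given RSD alone are of series A, and those given RSD with minocycline are of series B and C. In these groups alone, RSD alone against RSD with minocycline cannot be told apart from the series. Unstressed, untreated mice are of series A and B, with 4 and 8 AA and 2 and 6 SS cortex libraries. RSD alone against no stress thus sets series A against controls mostly of series B. A fit with the series as a term links series A to the others through these controls only. The median share of reads outside annotated genes was also lower with RSD alone in the cortex (3.69% in AA + RSD and 4.18% in SS + RSD mice, against 6.91% in AA and 9.75% in SS mice). Comparisons within a genotype share their control mice.

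The levels of the 10 genes per length of transcript differed widely, with Gucy1b1 and Ddah1 highest and Nos2 and Arg1 lowest in both tissues. As the median over libraries in CPM (the count scaled by the library's total on genes) per kilobase of exons, the order in the cortex was Gucy1b1 (45.4), Ddah1 (15.8), Gucy1a1 (10), Nos1 (4.35), Ddah2 (3.37), Nos3 (2.31), Asl (2.20), Arg2 (0.924), Nos2 (0.0743) and Arg1 (0.0281). In the hippocampus it was Gucy1b1 (32.5), Ddah1 (14.8), Nos1 (11.8), Ddah2 (3.39), Gucy1a1 (3.31), Asl (2.56), Nos3 (2.36), Arg2 (1.69), Nos2 (0.0693) and Arg1 (0.0400). Among neighbours in these orders, the ranges over libraries were apart between Gucy1b1 and Ddah1 and between Arg2 and Nos2 in each tissue, and the other neighbours overlapped. The coefficient of variation between libraries was 10.6% in the cortex and 11.7% in the hippocampus for Gucy1b1, 16.7% and 11.7% for Ddah1, and 81.3% and 77.0% for Arg1. Nos2, the inducible synthase, was covered by 1 to 45 reads per cortex library and 2 to 30 per hippocampus library. Arg1, the cytosolic arginase best known from liver, was at 0 reads in 5 of 66 cortex and 4 of 64 hippocampus libraries, where a count of 0 allows up to 0.0727 to 0.130 and 0.0931 to 0.151 CPM, and its median was 3 and 4 reads. Differences in Nos2 and Arg1 therefore carry a large counting error.

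**Figure D1:**
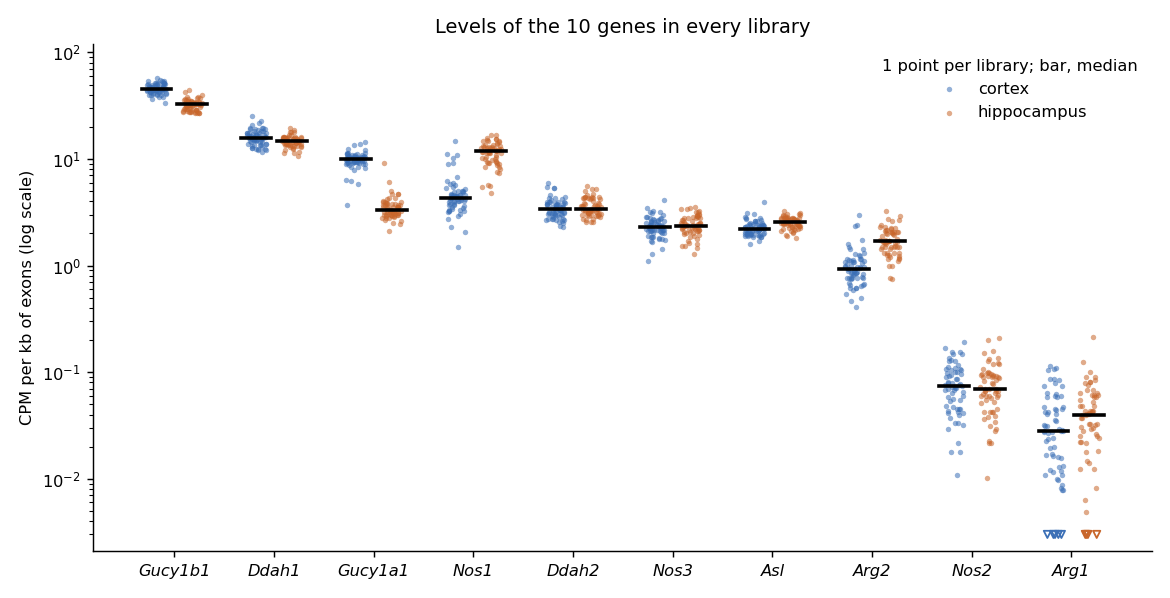
CPM per kilobase of exons (log axis) of each of the 10 genes in 66 cortex (blue) and 64 hippocampus libraries (orange), 1 point per library, with the median as a bar and open triangles for libraries at 0. Gucy1b1 is highest at medians of 45.4 and 32.5, Arg1 lowest at 0.0281 and 0.0400, and Gucy1a1 and Nos1 differ most between the tissues among the well covered genes.

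Between tissues, 5 of the 10 genes were called in both genotypes by a fit without the mouse as a block. Both tissues came from the same mice, and a fit with the block called further genes, as given below. In mice neither stressed nor treated, the quasi-likelihood test of edgeR called Gucy1a1 and Gucy1b1 higher and Nos1, Arg2 and Asl lower in the cortex than in the hippocampus, at a Benjamini-Hochberg adjusted p under 0.05. These were 5 of 9 tested in AA mice, where 37.1% of all genes tested were called, and 5 of 8 tested in SS mice, where 29.4% were. The median log2 difference, cortex minus hippocampus, was -0.05 for the genes tested in AA mice and -0.07 in SS mice, beside -0.023 and -0.018 over all genes. In bulk tissue, fewer cells of a type and less RNA per cell cannot be told apart.

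Nos1, the neuronal synthase, was about 3 times higher in the hippocampus. Its lowest, median and highest levels were 40.7, 47.8 and 53 CPM in the AA cortex and 96.5, 140 and 189 CPM in the AA hippocampus. In SS mice they were 37.5, 46 and 68 CPM in the cortex and 99.4, 144 and 178 CPM in the hippocampus. The tissues did not overlap in either genotype. The log2 difference, cortex minus hippocampus, was -1.60 ± 0.09 (SE, n = 12 and 11, adjusted p = 2.02e-13) in AA mice and -1.56 ± 0.14 (n = 8 and 7, adjusted p = 1.02e-07) in SS mice. Over all groups, 60 of 64 mice with both libraries had more Nos1 in the hippocampus, the exceptions being 5646, 5648, 9674 and 9890.

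Gucy1a1, the alpha subunit gene, had the reverse pattern. It reached 93.4, 105 and 118 CPM (lowest, median, highest) in the AA cortex and 21.9, 36.8 and 49 CPM in the AA hippocampus. In SS mice the values were 95.2, 101 and 111 CPM against 29.1, 33.5 and 40.4 CPM. The tissues were again apart in every mouse of both genotypes, with log2 differences of 1.55 ± 0.09 (adjusted p = 1.73e-13) and 1.58 ± 0.08 (adjusted p = 8.31e-11). Gucy1b1, the beta subunit gene, had a smaller difference in the same direction. It was at 173, 192 and 219 CPM in the AA cortex and at 114, 133 and 158 CPM in the AA hippocampus, and in SS mice at 168, 188 and 200 CPM against 118, 121 and 139 CPM. The groups did not overlap, and the log2 differences were 0.56 ± 0.06 (adjusted p = 1.08e-07) and 0.58 ± 0.07 (adjusted p = 3.39e-06). Both subunits were higher in the cortex in 63 of 64 mice, by a median of 2.94 times for Gucy1a1 and 1.47 times for Gucy1b1, and mouse 9674 was the exception for each. The subunits were thus not in a fixed ratio between tissues. Over libraries of 1 tissue, with group and series means subtracted, their log2 levels correlated at r = 0.47 in the cortex (n = 66) and 0.40 in the hippocampus (n = 64), as a description. Mouse 9674 is among these libraries. For Gucy1a1 and Gucy1b1 it ranked 1 and 2 of 66 from the lowest in the cortex, and highest for both in the hippocampus. The correlations were not computed without it.

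Arg2, the mitochondrial arginase, and Asl were higher in the hippocampus by smaller factors. Arg2 was at 0.904, 1.36 and 1.57 CPM in the AA cortex and 1.45, 2.48 and 3.90 CPM in the AA hippocampus, and at 0.600, 1.04 and 1.60 CPM against 1.08, 1.92 and 2.78 CPM in SS mice. The ranges overlapped at their ends, and the log2 differences were -0.96 ± 0.16 (adjusted p = 2.40e-05) and -0.81 ± 0.23 (adjusted p = 0.0114). Arg2 shares 41.8% of its exonic bases with genes on the other strand (Gm48780 and Vti1b), and the strand setting of the counts is not given in the sources used here. Asl was at 10.5, 13.4 and 16.9 CPM in the AA cortex and 14.2, 17.8 and 21.5 CPM in the AA hippocampus, and at 12.3, 14.4 and 16.1 CPM against 16.3, 18.3 and 20 CPM in SS mice. Its tissues overlapped in AA mice and did not in SS mice, and the log2 differences were -0.30 ± 0.07 (adjusted p = 0.00081) and -0.33 ± 0.07 (adjusted p = 0.00126). Arg2 was higher in the hippocampus in 57 of 64 mice and Asl in 48.

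The other genes did not pass the test between tissues. The log2 difference, cortex minus hippocampus, of Nos3, the endothelial synthase, was -0.05 (adjusted p = 0.728) in AA and 0.03 (adjusted p = 0.897) in SS mice. For Ddah2, the DDAH found mainly in vessels and immune cells, it was -0.08 (adjusted p = 0.563) and -0.16 (adjusted p = 0.489). Ddah1, the main enzyme that clears methylated arginines, had 0.21 ± 0.08 (adjusted p = 0.0505) and 0.16 ± 0.12 (adjusted p = 0.402), and Nos2 had 0.52 ± 0.26 (adjusted p = 0.126) in AA mice. With the mouse as a block, which uses the pairing of the tissues, Ddah1 passed in AA mice (0.20, adjusted p = 9.55e-05) and SS mice (0.16, adjusted p = 0.0172), and Nos2 in AA mice (0.53, adjusted p = 0.0237). Arg1 was too low to be tested in either genotype, and Nos2 in SS mice.

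**Figure D2:**
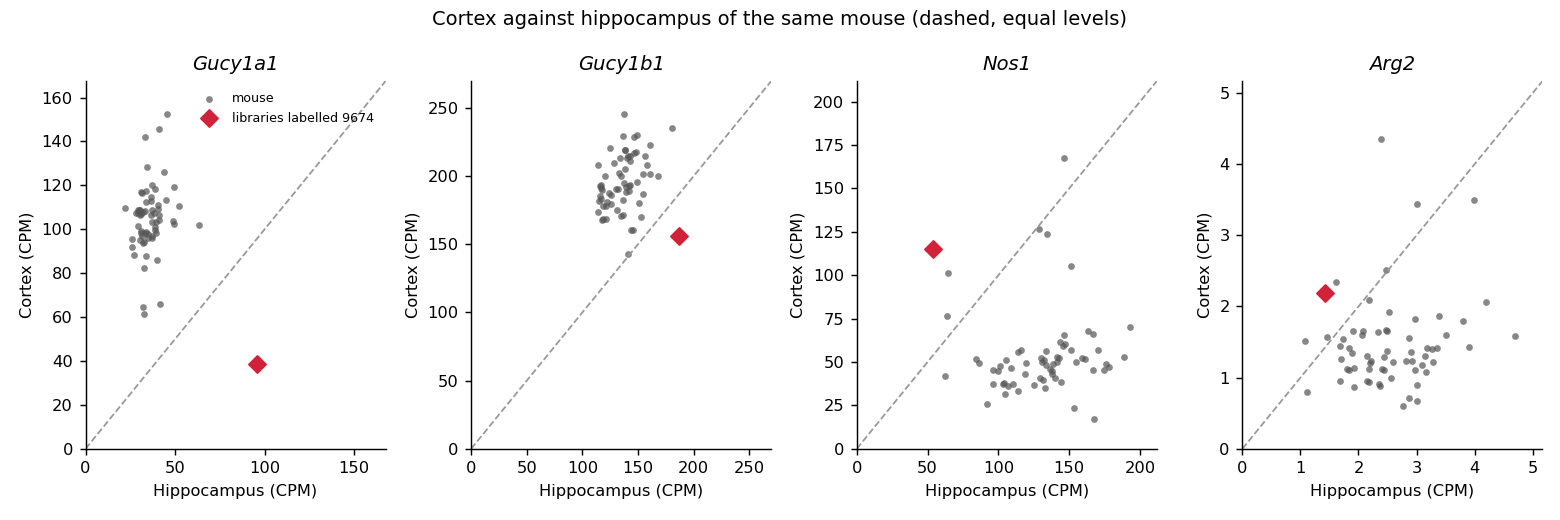
Level in CPM of Gucy1a1, Gucy1b1, Nos1 and Arg2 in the cortex (vertical axis) against the hippocampus (horizontal axis) of the same 64 mice, with a dashed line at equal levels and a red diamond for mouse 9674. For both receptor subunits 63 mice lie above the line, for Nos1 60 lie below it, and mouse 9674 lies opposite to most mice in all 4 panels.

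The highest levels of Nos1 in the cortex were in libraries low in cortical markers. An association over all cortex libraries is not given here. The 6 cortex libraries with the highest Nos1, 101 to 167 CPM, were among the 7 with the lowest summed level of the cortical markers Tbr1, Rorb and Cux2, at 69.8 to 173 CPM against a median of 264 CPM. The other of these 7, mouse 9889 at 167 CPM, had 25.9 CPM of Nos1, and the next library below the 6 had 76.3 CPM of Nos1. Among the 6, mice 9621, 9813 and 9890 had 562 to 1042 CPM of 6 striatal markers, against a median of 141 CPM, and mouse 9674 had 5189 CPM of choroid plexus markers against a median of 12.1 CPM. Nos1 varied more in the cortex (46.2%) than in the hippocampus (23.7%). In the hippocampus, the library with the second highest Gucy1a1 (63.5 CPM) and second lowest Nos1 (62.6 CPM), mouse 9810, had the second highest cortical marker sum (192 CPM) after mouse 9674. The part of dissection in these levels was not tested.

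Other genes of the pathway also differed between tissues. Of 40 genes on the list, 37 were tested, and 9 were higher and 8 lower in the cortex in AA mice, and 10 higher and 4 lower in SS mice, beside the 37.1% and 29.4% of all genes called in these comparisons. Among 9 genes of cGMP signalling tested, 3 were higher and 3 lower in AA mice, and 3 and 2 in SS mice. Prkg2, a membrane-bound cGMP-dependent kinase, was at 9.31, 10.7 and 11.9 CPM in the AA cortex and at 2.70, 4.13 and 5.38 CPM in the AA hippocampus, with log2 differences of 1.44 ± 0.09 (adjusted p = 2.47e-12) in AA and 1.32 ± 0.15 (adjusted p = 1.82e-06) in SS mice. Prkg1, the soluble kinase of the same family, went the other way, at 6.89, 8.28 and 11 CPM against 13, 14.6 and 19.1 CPM, with -0.89 ± 0.09 (adjusted p = 4.56e-09) and -0.95 ± 0.11 (adjusted p = 3.34e-06). Pde2a, a phosphodiesterase that cGMP stimulates, was higher in the cortex by 0.45 ± 0.10 (adjusted p = 0.001) and 1.07 ± 0.18 (adjusted p = 0.000168) on the log2 scale. It shares 52.6% of its exonic bases with Gm45837 on the same strand. The receptor subunits and these kinases and phosphodiesterases thus differed between the tissues in both directions.

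The counts by role that follow stand against the same 37.1% and 29.4% of all genes. Among 10 genes of arginine and citrulline metabolism tested, 5 were higher in the cortex in both genotypes, and 2 were lower in AA and 1 in SS mice. Slc7a3, a cationic amino acid transporter that carries arginine into cells, was higher by 0.73 ± 0.14 (adjusted p = 0.000101) and 0.67 ± 0.16 (adjusted p = 0.00391). Ass1, the enzyme before Asl in the citrulline cycle, was higher by 0.35 ± 0.08 (adjusted p = 0.000769) and 0.35 ± 0.11 (adjusted p = 0.026), while Asl was lower. Agmat, an enzyme named for splitting the arginine product agmatine and singled out after its values were seen, was at 1.71, 2.74 and 3.12 CPM in the AA cortex and 0.127, 0.199 and 0.351 CPM in the AA hippocampus, a log2 difference of 3.50 ± 0.17 (adjusted p = 2.16e-14). Of 6 genes of tetrahydrobiopterin supply, the synthase cofactor, 2 were lower in the cortex in AA mice (Gchfr and Pts) and 0 were called by edgeR in SS mice. Of 5 methylarginine genes, Prmt6 was lower in both genotypes and Prmt8 higher in SS mice, and of 7 synthase partners Nos1ap, a Nos1 adaptor, was higher in both.

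Between genotypes, none of the 10 genes passed the test in mice without stress or treatment. Of 10 tested, edgeR called 0 in SS against AA mice in the cortex, where it called 0.214% of all genes, and 0 in the hippocampus, where it called 0.159%. At an unadjusted p under 0.05 there were 3 (Nos3, Arg1 and Nos2) and 1 (Nos3), and DESeq2 called 0 and 0. The share of all genes at that unadjusted cutoff is not given, here or below, so such counts stand without a background. The median log2 difference over the 10 genes, SS minus AA, was -0.08 and -0.04, beside -0.001 and 0.010 over all genes. The gene with the lowest adjusted p in both tissues was Nos3.

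Nos3 levels were 6.38, 10.7 and 14.8 CPM (lowest, median, highest) in the cortex of AA mice and 11.6, 14.8 and 20.5 CPM in SS mice, with means of 10.6 ± 2.31 (SD, n = 12) and 14.8 ± 2.91 (n = 8). In the hippocampus they were 8.47, 11.1 and 14 CPM in AA mice and 12.1, 14.5 and 16.9 CPM in SS mice, with means of 11.1 ± 1.34 (n = 11) and 14.7 ± 1.72 (n = 7). The SS median was close to the highest AA level in the cortex and above it in the hippocampus, but the ranges overlapped in both. The log2 difference was 0.45 ± 0.12 (adjusted p = 0.128) in the cortex and 0.38 ± 0.13 (adjusted p = 0.661) in the hippocampus, and none of 11 alternatives per tissue passed the test (adjusted p 0.0805 to 1 and 0.0826 to 0.882). The summed level of 6 endothelial markers moved with it. It was 187, 205 and 290 CPM in AA and 266, 281 and 301 CPM in SS mice in the cortex, and 178, 193 and 239 CPM against 237, 259 and 327 CPM in the hippocampus. As a share of that sum, the median Nos3 level was 4.93% in AA and 5.20% in SS cortex, and 5.74% and 5.43% in the hippocampus. None of the 6 markers passed the edgeR test between the genotypes (log2 differences 0.03 to 0.48 in the cortex and 0.24 to 0.49 in the hippocampus). The 3 erythroid markers (Alas2, Slc4a1 and Epb42) were called higher in SS mice in both tissues, with summed levels of 2.76, 4.62 and 107 CPM in AA and 59, 115 and 136 CPM in SS cortex (the highest AA value from mouse 9631). The part of endothelial and red cells in the Nos3 level was not tested. Nos3 also shares 32.7% of its exonic bases with genes on the other strand (Atg9b and Gm15587).

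Nostrin, a partner that traffics the endothelial synthase away from the membrane, was the gene of the pathway list called between AA and SS mice without stress or treatment. It was at 2.52, 3.67 and 5.68 CPM in AA and 5.08, 5.82 and 7.59 CPM in SS mice in the cortex, and at 1.96, 2.99 and 4.22 CPM against 4.35, 5.10 and 7.16 CPM in the hippocampus. The ranges overlapped slightly in the cortex and not in the hippocampus. The log2 differences were 0.69 ± 0.16 (adjusted p = 0.030) and 0.77 ± 0.15 (adjusted p = 0.00552). In the cortex, the call was lost without mouse 9674, a mouse of neither group (0.64, adjusted p = 0.108), with no filter on low counts (0.66, adjusted p = 0.152) and with the identical libraries kept (0.68, adjusted p = 0.0616). It was also lost within series A and within series B in both tissues, at log2 differences of 0.65 to 0.79. Nostrin was also called higher by edgeR in SS + RSD + minocycline than in AA + RSD + minocycline mice in the hippocampus (0.41 ± 0.12, adjusted p = 0.0342). It was 1 of 38 pathway genes tested there, where 2.74% of all genes were called. DESeq2 did not call it (0.41, adjusted p = 0.074). Nostrin shares 48.8% of its exonic bases with Spc25 on the other strand.

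Nos2 and Arg1 were lower in the SS than in the AA cortex without passing the test. Nos2 was at 0.0969, 0.194 and 0.565 CPM in SS and 0.250, 0.448 and 0.857 CPM in AA mice (-1.06 ± 0.32, adjusted p = 0.299). In the hippocampus the log2 difference was -0.18 ± 0.33 (adjusted p = 1). Arg1, at 0, 0.033 and 0.111 CPM in SS and 0.025, 0.125 and 0.367 CPM in AA cortex, had -1.89 ± 0.64 (adjusted p = 0.483), and 0.01 ± 0.53 (adjusted p = 1) in the hippocampus. These are a few reads per library. Gucy1a1, Gucy1b1, Nos1, Arg2, Ddah1, Ddah2 and Asl had log2 differences between genotypes of -0.39 to 0.05 in either tissue.

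**Figure D3:**
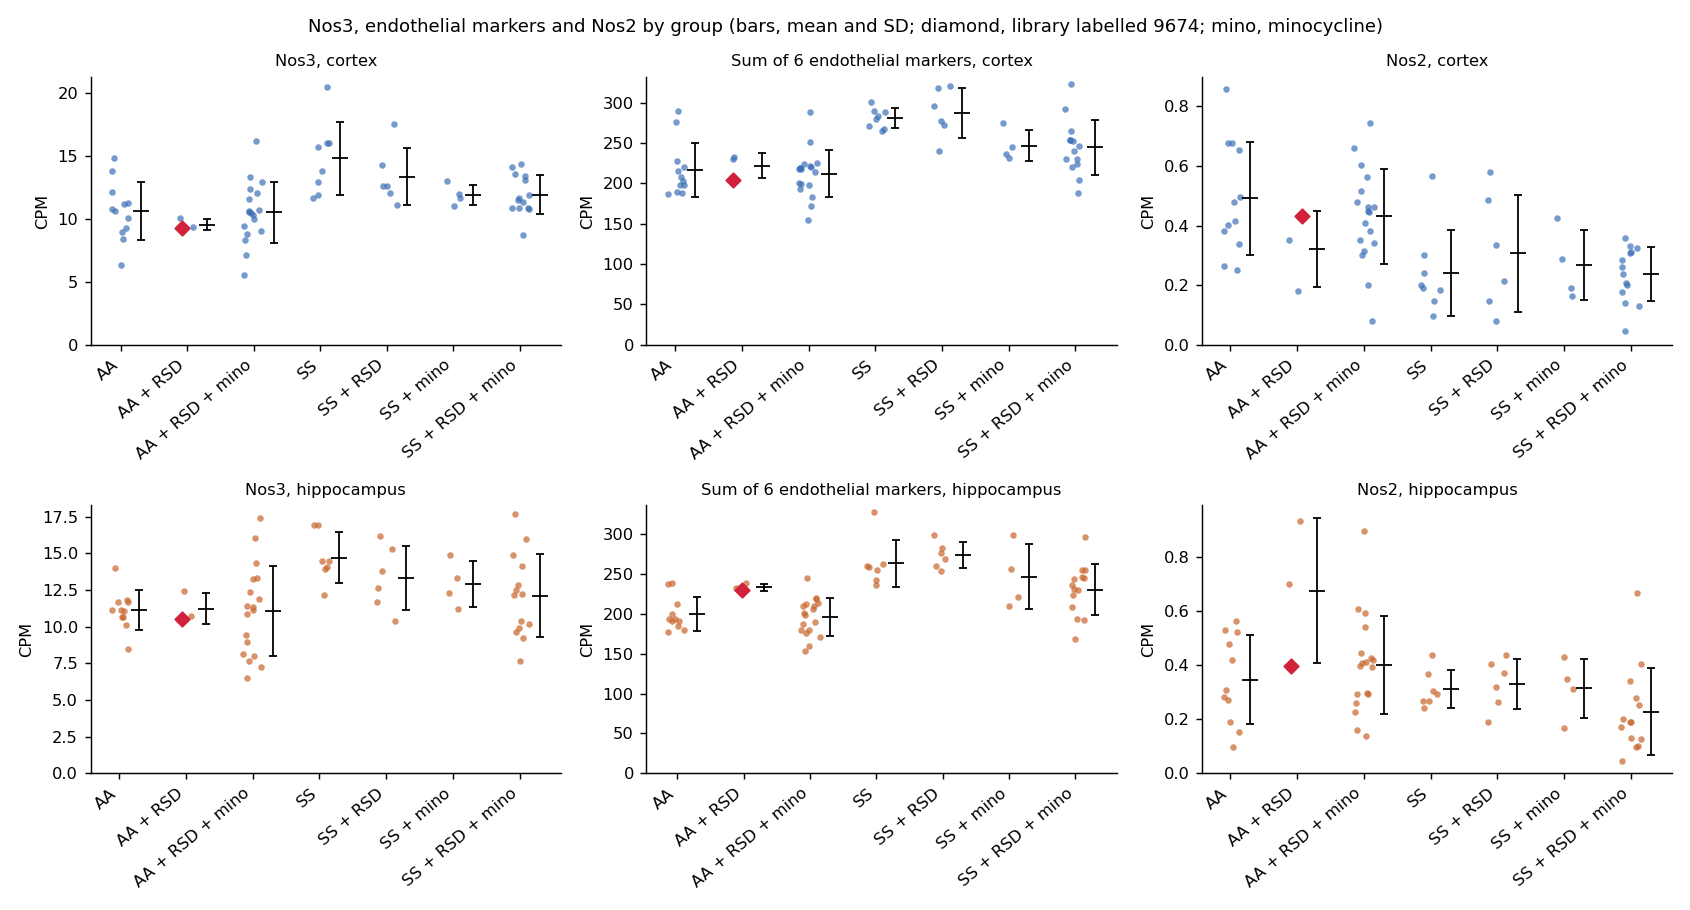
CPM of Nos3 (left), of the sum of 6 endothelial markers (middle) and of Nos2 (right) in cortex (top) and hippocampus (bottom) libraries of each group, 1 point per library, with mean and SD as bars and a red diamond for the library labelled 9674. Median Nos3 is 14.8 in SS and 10.7 in AA cortex, and the marker sum has medians of 281 and 205 in the same mice.

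Genotypes were also compared after RSD. Of 10 genes, edgeR called 0 in the cortex in SS + RSD against AA + RSD mice, where it called 0.493% of all genes (1 at an unadjusted p under 0.05, Nos3, and 0 by DESeq2). Nos3 was at 9.24 (mouse 9674), 9.33 and 10.1 CPM in the 3 AA + RSD mice and at 11.1, 12.6 and 17.5 CPM in the 6 SS + RSD mice. The log2 difference was 0.48 ± 0.20 (adjusted p = 0.700), or 0.46 ± 0.22 (adjusted p = 1) without the library labelled 9674. In the hippocampus edgeR called Gucy1a1 alone, described below, where it called 0.78% of all genes. With RSD and minocycline, edgeR called 0 of 10 in the cortex (0.624% of all genes called, 1 at an unadjusted p under 0.05, Nos2, and 0 by DESeq2) and 0 in the hippocampus (2.74%, 2 at an unadjusted p under 0.05, Nos2 and Ddah2, and 0 by DESeq2). Nos2 was again lower in the SS group. It was at 0.0477, 0.248 and 0.357 CPM in SS + RSD + minocycline and 0.0793, 0.447 and 0.744 CPM in AA + RSD + minocycline cortex (-0.86 ± 0.24, adjusted p = 0.0934). In the hippocampus it was at 0.0446, 0.189 and 0.668 CPM against 0.139, 0.403 and 0.898 CPM (-0.81 ± 0.25, adjusted p = 0.0652). The ranges overlapped in both tissues, and none of the alternatives brought Nos2 past the test (adjusted p 0.0509 to 0.406 and 0.0532 to 0.951). Nos3 differed by 0.15 (adjusted p = 0.750) and 0.13 (adjusted p = 0.963) in these mice.

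Gucy1a1 was called in the hippocampus in 4 comparisons that use the AA + RSD group, and 1 library decided it. The 3 AA + RSD mice had 34, 49.4 and 95.8 CPM, the last being mouse 9674, whose tissues look exchanged. AA mice had 21.9, 36.8 and 49 CPM, AA + RSD + minocycline mice 28.2, 34.2 and 43.8 CPM and SS + RSD mice 27.2, 33.3 and 45.3 CPM. Mouse 9674 stood far above each of these ranges. Its cortex library, at 38.5 CPM, stood below the other AA + RSD cortex libraries (103 and 117 CPM). The log2 difference was 0.78 ± 0.17 in AA + RSD against AA mice (adjusted p = 0.0155), where 1.19% of all genes were called. It was -0.81 ± 0.16 in AA + RSD + minocycline against AA + RSD mice (adjusted p = 0.00395), where 2.67% were called, and -0.76 ± 0.19 in SS + RSD against AA + RSD mice (adjusted p = 0.0388). The interaction of genotype and minocycline after RSD was 0.89 ± 0.22 (adjusted p = 0.0292), where 0.762% were called. Without the library labelled 9674 these were 0.21 (adjusted p = 0.899), -0.25 (adjusted p = 0.700), -0.19 (adjusted p = 1) and 0.32 (adjusted p = 1), and no gene of the 10 was called in any of them by edgeR. With it, 5 genes had an unadjusted p under 0.05 in AA + RSD against AA mice (Gucy1b1, Gucy1a1, Ddah1, Nos2 and Ddah2). The other 3 comparisons had 2 (Gucy1a1 and Ddah1), 2 (Gucy1a1 and Nos2) and 1 (Gucy1a1), and DESeq2 called 1 in each of the 4. Without that library, Nos2 differed between AA + RSD and AA mice by 1.22 ± 0.47 and Ddah2 by 0.48 ± 0.19 (adjusted p = 0.899 for both). Gucy1b1 and Ddah1 were at 0.12 and 0.15.

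**Figure D4:**
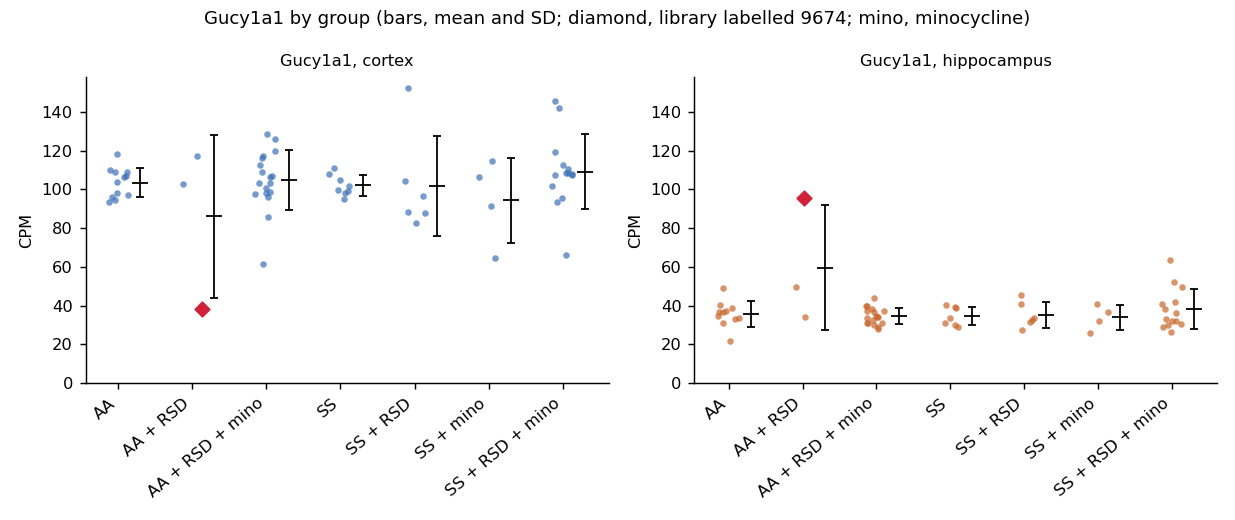
CPM of Gucy1a1 in cortex (left) and hippocampus (right) libraries of each group, 1 point per library, with mean and SD as bars. The red diamond, the library labelled 9674, lies at 38.5 in the cortex and 95.8 in the hippocampus, against medians of 105 and 36.8 in AA mice.

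In SS mice, RSD was compared with no stress, and RSD with minocycline with RSD alone. In the cortex edgeR called 0 of 9 genes tested in SS + RSD against SS mice, where it called 2.57% of all genes (3 at an unadjusted p under 0.05, Gucy1b1, Ddah1 and Arg2, and 0 by DESeq2). It called 0 of 9 in SS + RSD + minocycline against SS + RSD mice, where it called 8.85% (3 at an unadjusted p under 0.05, Gucy1b1, Ddah1 and Nos3, and 1, Ddah1, by DESeq2). In the hippocampus it called 0 of 10 in both, beside 3.11% and 5.96% of all genes (1 each at an unadjusted p under 0.05, Ddah1, and 0 by DESeq2). The median log2 difference in SS + RSD against SS mice was 0.35 over the genes tested in the cortex, beside 0.082 over all genes, and 0.15 beside 0.056 in the hippocampus.

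Ddah1 was the gene nearest to the threshold in these comparisons. It was at 73.9, 94.4 and 117 CPM in SS, 100, 110 and 152 CPM in SS + RSD and 70.2, 91.9 and 138 CPM in SS + RSD + minocycline cortex. The 152 CPM came from mouse 9621, named above for its striatal markers, and the next SS + RSD library had 116 CPM. The ranges overlapped. The log2 difference was 0.39 ± 0.14 for SS + RSD against SS (adjusted p = 0.0918) and -0.38 ± 0.13 for SS + RSD + minocycline against SS + RSD (adjusted p = 0.0535), and in the hippocampus 0.28 ± 0.11 (adjusted p = 0.131) and -0.21 ± 0.09 (adjusted p = 0.137). Within series A alone, with 6 SS + RSD and only 2 SS mice, the difference between SS + RSD and SS cortex was 0.01. With the series as a term the difference between SS + RSD + minocycline and SS + RSD cortex was 0.17 (adjusted p = 1). The summed level of 4 astrocyte markers moved with Ddah1, at 764, 861 and 970 CPM in SS, 954, 990 and 1477 CPM in SS + RSD and 581, 872 and 1480 CPM in SS + RSD + minocycline cortex. Of these markers edgeR called 2 lower in SS + RSD + minocycline than in SS + RSD cortex, and 0 between SS + RSD and SS. The part of astrocytes in the Ddah1 level was not tested. Arg2 had 0.68 ± 0.30 (adjusted p = 0.140) and Gucy1b1 0.24 ± 0.10 (adjusted p = 0.125) in SS + RSD against SS cortex.

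In AA mice, edgeR called 0 of 10 genes in the cortex, with and without the library labelled 9674, in AA + RSD against AA (0.853% of all genes called, 0 at an unadjusted p under 0.05, and 0 by DESeq2) and in AA + RSD + minocycline against AA + RSD (3.6%, with 0 and 0). In AA + RSD + minocycline against AA mice it called 0 in the cortex (0.0319%, 1 at an unadjusted p under 0.05, Asl, and 0 by DESeq2) and 0 in the hippocampus (0%, with 0 and 0). Minocycline without RSD was tested in SS mice only. There edgeR called 0 of 9 in the cortex (0%, 1 at an unadjusted p under 0.05, Asl, and 0 by DESeq2) and 0 of 10 in the hippocampus (0%, 2 at an unadjusted p under 0.05, Gucy1b1 and Arg2, and 0 by DESeq2). The 4 SS + minocycline hippocampus libraries had 139, 141, 143 and 145 CPM of Gucy1b1, against 118, 121 and 139 CPM (lowest, median, highest) in 7 SS mice, a log2 difference of 0.26 ± 0.13 (adjusted p = 0.981). SS + RSD + minocycline against SS mice gave 0 calls in the cortex (0%, 2 at an unadjusted p under 0.05, Nos3 and Arg2, and 0 by DESeq2) and 0 in the hippocampus (0%, 2 at an unadjusted p under 0.05, Gucy1b1 and Nos3, and 0 by DESeq2). Nos3 in these SS + RSD + minocycline mice was at 8.75, 11.6 and 14.4 CPM in the cortex, a log2 difference of -0.31 ± 0.09 from SS mice (adjusted p = 0.778) and of -0.29 ± 0.10 from SS + RSD mice (adjusted p = 0.0677).

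The interaction of genotype and RSD gave 0 calls by edgeR among the 10 genes in the cortex (0.236% of all genes called, 0 at an unadjusted p under 0.05, and 0 by DESeq2) and 0 in the hippocampus (0.0474%, 1 at an unadjusted p under 0.05, Gucy1a1, and 0 by DESeq2). That of genotype and minocycline after RSD gave 0 in the cortex (0.231%, with 0 and 0).

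**Figure D5:**
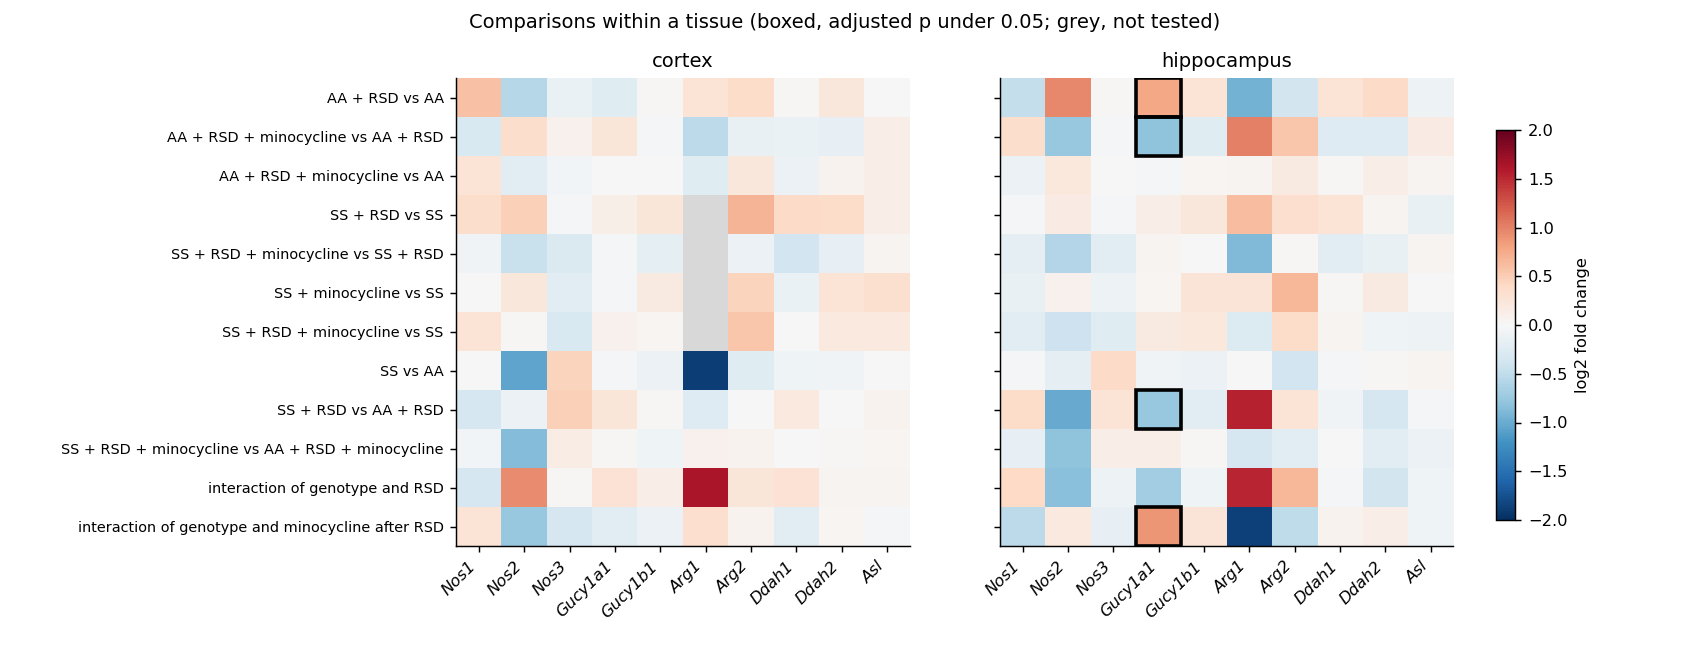
Fitted log2 differences of the 10 genes (columns) in the 12 comparisons within the cortex (left) and the hippocampus (right), as colours from blue (lower in the first group) to red (higher), with boxes at an adjusted p under 0.05 and grey where a gene was not tested. The 4 boxes are all Gucy1a1 in the hippocampus, at 0.78, -0.81, -0.76 and 0.89, and Arg1 and Nos2, the least covered genes, have the strongest colours.

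Of the wider pathway list, few genes were called within a tissue, and most rested on the AA + RSD group or on groups of different series. In the cortex, 3.6% of all genes were called in AA + RSD + minocycline against AA + RSD and 8.85% in SS + RSD + minocycline against SS + RSD. In the hippocampus, 2.67% were called in AA + RSD + minocycline and 0.78% in SS + RSD against AA + RSD, and 1.19% in AA + RSD against AA. In the cortex, Odc1, the polyamine synthesis enzyme fed by arginase, was lower (-0.75 ± 0.19, adjusted p = 0.0219) and Slc7a3 higher (0.52 ± 0.14, adjusted p = 0.0308) in AA + RSD + minocycline than in AA + RSD mice, of 38 genes tested. Without the library labelled 9674 they were at -0.63 (adjusted p = 0.298) and 0.34 (adjusted p = 0.354), and with the series as a term at -0.21 (adjusted p = 0.907) and 0.26 (adjusted p = 0.714). Dlg4, a scaffold that holds Nos1 at synapses, was lower in SS + RSD + minocycline than in SS + RSD cortex (-0.26 ± 0.07, adjusted p = 0.0251), and was at 0.01 (adjusted p = 1) with the series as a term. In the hippocampus, Ass1 was lower in AA + RSD + minocycline (-0.48 ± 0.12, adjusted p = 0.0231) and in SS + RSD (-0.55 ± 0.14, adjusted p = 0.0381) than in AA + RSD mice, and the calls were lost without the library labelled 9674 (-0.42, adjusted p = 0.651, and -0.49, adjusted p = 1). With the series as a term the first was -0.18 (adjusted p = 0.611), and the second stayed called (-0.55, adjusted p = 0.0141). Agmat, a gene of far higher level in the cortex, was at 0.389, 0.405 and 3.37 CPM in the AA + RSD hippocampus, the last again from mouse 9674, and its difference from AA mice fell from 2.67 (adjusted p = 0.000695) to 0.79 (adjusted p = 0.899) without it.

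The genes whose levels most resembled those of each gene, as Pearson r of log2 CPM over libraries of a tissue with group and series means subtracted, were as follows, as a description over 66 cortex and 64 hippocampus libraries. Nos3 went with Hspa12b (0.80), Sox17 (0.78) and Tie1 (0.76) in the cortex and with Adcy4 (0.86), Hspa12b (0.83) and Tie1 (0.83) in the hippocampus, of which Sox17 and Tie1 are known from endothelium. Ddah1 went with Vsir (0.86), Slc1a3 (0.83) and Serpine2 (0.81) in the cortex and with Serpine2 (0.83), S100b (0.82) and Gpc5 (0.82) in the hippocampus, of which Slc1a3 and S100b are known from astrocytes. Nos1 went with Nrp2 (0.92), Chd3 (0.89) and Ripor2 (0.88) in the cortex and C530008M17Rik (0.89), Chrna7 (0.86) and Slit3 (0.85) in the hippocampus. Gucy1a1 went with Pde4b (0.85), Dclk3 (0.79) and Elmo1 (0.76) in the cortex and Mef2c (0.89), Osbpl1a (0.87) and Dpy19l1 (0.87) in the hippocampus. Gucy1b1 went with Usp47 (0.80), Ckap5 (0.79) and Ttc3 (0.78) in the cortex and Tmeff1 (0.92), Serbp1 (0.92) and Eif4e (0.91) in the hippocampus. Ddah2 reached 0.81 at most in the cortex (Clic1) and 0.83 in the hippocampus, and Asl 0.73 in each tissue (1810043G02Rik and Pde9a). These libraries share depth, dissection and preparation, and library 9674 is among them.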

How the data were processed

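The authors prepared directional polyA libraries, aligned single reads to GRCm39 with STAR and deposited raw counts per GENCODE gene for each tissue, without normalization. The STAR version, the annotation release and the strand setting are not given in the sources used here. Lines that name no gene (among them a median of 8.25% and 7.59% of reads outside genes in cortex and hippocampus) stayed out of library sizes. Of 134 libraries with a group, a pair per tissue with identical counts under labels of different groups (SS + minocycline mouse 9887 and AA + RSD + minocycline mouse 9877) was left out. So were 3 columns matched to no grouped library, among them that of 1 library without a group.

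Tests were run with edgeR 4.0.16 in R 4.3.3 (filterByExpr by group with a minimum count of 10 and a minimum total of 15, TMM, glmQLFit and glmQLFTest). Adjusted p-values are Benjamini-Hochberg values over all genes tested, called under 0.05, and each log2 difference is the first group minus the second. Within a genotype, all its groups of a tissue entered one model, and between genotypes all groups did. Tissues were compared in AA and in SS mice without the mouse as a block. The tissues came from the same mice, and deviations of the same mouse correlated at 0.482 to 0.754 in 11 AA mice and 0.284 to 0.798 in 7 SS mice. CPM are counts scaled by the library's total on genes.

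Mice were the replicates. The 10 genes, the pathway list and the markers were chosen with earlier results of these data known. A pathway gene and some markers are not reported here and were taken out of their lists and sums. From the pathway list, the rule named up to 3 called genes of largest change per comparison whose mean log2 CPM reached 1 (between tissues Prkg2, Prkg1, Slc7a3 and Pde2a). Ass1, Gchfr, Pts, Prmt6, Prmt8 and Nos1ap between tissues, and Agmat, fall outside it and were named after their values were seen. Likeness used the same minimum with a prior count of 2. Alternatives were DESeq2 1.42.0, other scaling, no filter, other models, mouse number series as a term or alone, and libraries left out. edgeR and DESeq2 were tested on simulated data. Positions come from a GENCODE annotation of GRCm39, and promoters from RefSeq on GRCm38.p6.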

Additional observations from a re-analysis of the deposited data

Results flagged for a closer look

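Single libraries stood apart from the others of their group in 7 of 60 gene levels in groups of 4 to 10 libraries, where the gap to the nearest library exceeded the 95% limit of Dixon's test. Chance alone gives this in about 1 in 20 groups. Larger groups were not tested, among them those with Nos1 at 167 CPM in AA + RSD + minocycline cortex mouse 5646 (next 76.3 CPM). In the cortex, Nos1 was 68 CPM in SS mouse 5785 (next 51.7 CPM) and 124 CPM in SS + RSD mouse 9621 (next 51.4 CPM), Nos2 was 0.565 CPM in SS mouse 9903 (next 0.302 CPM), and Gucy1a1 and Ddah1 were 152 and 152 CPM in SS + RSD mouse 9621 (next 104 and 116 CPM). In the hippocampus, Ddah1 was 112 CPM in SS + RSD mouse 9621 (next 96.9 CPM), and Arg1 was 0.677 CPM, or 17 reads, in SS + RSD mouse 5354 (next 0.201 CPM).

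The response to minocycline after RSD differed between genotypes in the hippocampus for Gucy1a1 (0.89 on the log2 scale, SS minus AA) and for Agmat (2.56, adjusted p = 0.00907). Without the library labelled 9674 these were 0.32 (adjusted p = 1) and 0.67 (adjusted p = 1).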

How the results depend on the processing

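Of 285 recomputed counts of the 10 genes called, 222 were 0 as before, which says nothing of stability. Of the 59 for comparisons with a call, 41 stayed within 1.5 times. In the hippocampus, the 1 call became 0 without the library labelled 9674 and without the 5 doubted libraries in AA + RSD against AA, AA + RSD + minocycline against AA + RSD, SS + RSD against AA + RSD and the interaction of genotype and minocycline. A model of only the groups compared also gave 0 in all but AA + RSD + minocycline against AA + RSD, series A alone gave 0 in AA + RSD against AA and SS + RSD against AA + RSD, and no filter gave 0 in SS + RSD against AA + RSD. Leaving out each AA + RSD mouse in turn gave 0 to 1 calls in these comparisons. The same held in the interaction of genotype and RSD, where Gucy1a1 was called without AA + RSD mouse 9646. Mice of the other groups in these comparisons were not left out in turn. DESeq2 called 1 (Ddah1, -0.35, adjusted p = 0.0447) in SS + RSD + minocycline against SS + RSD cortex. Series B alone gave 2 (Asl and Ddah2) and 1 (Gucy1b1) in SS + minocycline against SS cortex and hippocampus. That fit held only 2 SS + minocycline mice per tissue, against 6 SS cortex and 5 SS hippocampus libraries. Its share of all genes called is not given here, and the main fit called 0% in both tissues. With the series as a term, Ddah1 in SS + RSD + minocycline against SS + RSD cortex reversed to 0.17. The cause was not tested. With the mouse as a block, which the pairing calls for, 7 genes in AA and 6 in SS mice were called between tissues in place of 5 and 5. The 5 genes called between tissues were called in every alternative. Depth limits Nos2 and Arg1, and 3 AA + RSD mice limit their comparisons.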
